A study of Mus musculus with 26 samples.

Results

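The comparison described here sets granulocyte-macrophage progenitors (GMP) against the Flt3-positive multipotent progenitors called MPPFL+, and so spans the whole myeloid path that the series covers in bone marrow. Its members are the 3 arrays titled GMP and the 3 arrays titled MPP_FLpos, chosen by title, which are 6 of the 26 arrays of the series. The series measured messenger RNA in 8 mouse blood cell progenitor populations, from multipotent progenitors in bone marrow to early thymocytes, on Affymetrix arrays with 1 array per sample. GMP cells came from the bone marrow of untreated C57/Bl6 males aged 2 months, and MPPFL+ cells came from the same tissue, strain, sex and age. The labels name no further allele or agent for either population, and spell MPPFL+ as MMPFL+ in another field. They give no sorting gates, and nothing in them ties replicates to separate mice. The p-values therefore reflect only how much these samples scatter, which may be technical. Common myeloid progenitors (CMP, 3 arrays) and common lymphoid progenitors (CLP, 3 arrays) are used to place the differences.

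Granulocyte-macrophage progenitors are bone marrow cells that give rise to neutrophils and monocytes. During the promyelocyte stage that follows, neutrophil precursors fill their primary (azurophil) granules with myeloperoxidase and a set of serine proteases, and only later make the proteins of secondary and tertiary granules. Multipotent progenitors that carry the receptor Flt3 have lost much of the self-renewal of stem cells but can still form both lymphoid and myeloid cells, and many of them begin to transcribe lymphoid genes. The transcription factors PU.1 (gene Spi1) and C/EBPα (gene Cebpa) are central to myeloid fate, while Gfi1 and Irf8 act in the choice between neutrophils and monocytes.

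Levels are given on the log2 scale of the deposited table, on which 1 unit is a factor of 2, and a change is the mean of GMP minus the mean of MPPFL+. The lowest value of the table, 2.17, was taken by 30.2% to 37.1% of probe sets per array and is treated as the floor of the measurement. A gene passed when its adjusted p was under 0.05 in the limma fit of all 26 arrays, which tested 18194 genes, and only such genes are said to have risen or fallen. Arrays correlated at 0.997 to 0.998 within GMP, at 0.991 to 0.996 within MPPFL+, and at 0.947 to 0.952 between the populations (Pearson, across genes, which are not independent replicates). The spiked-in poly-A controls averaged 7.39 ± 0.16 in GMP and 4.22 ± 0.75 in MPPFL+ (SD, n = 3 each). The actin probe sets at the 3′ end exceeded those at the 5′ end by 1.49 ± 0.03 in GMP and by 2.74 ± 0.19 in MPPFL+, and neither measure overlapped between the populations. When arrays were clustered on their spiked-in controls, the GMP arrays formed a cluster of their own and the MPPFL+ arrays lay in another, so population and array processing cannot be told apart within clusters. The CLP arrays lay in the same cluster as the MPPFL+ arrays and the CMP arrays in others, so CLP against MPPFL+ compares arrays of 1 cluster while every difference of GMP lies between clusters. With these clusters as a random block, 35 of the 204 genes named by rule lost their call, among them Mpo, Clec11a, S100a9, Klf4, Rac1, Lgmn, Hspa5, Il7r, Gata1, Alad, Ccnb2, Ccnd2, Itgam, Vcam1 and Junb, which are described below. Because these are bulk samples, fewer cells of a type and less RNA per cell cannot be told apart.

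The labelled populations were checked with a marker of each. Elane, the neutrophil elastase stored in primary granules, was at 13.93, 13.62 and 13.70 on the GMP arrays, against 3.33, 3.53 and 6.26 on the MPPFL+ arrays. It rose by 9.37 (SE 0.77, adjusted p = 1.01e-08), with all 3 GMP arrays far above the highest MPPFL+ array. Flt3, the receptor that the FL of the MPP name is read as, was at 4.78, 4.43 and 5.48 in GMP, against 13.43, 13.53 and 12.99 in MPPFL+. Its level fell by 8.42 (SE 0.40, adjusted p = 3.89e-12), so both markers lay where the labels put them. One array stood apart in part of its values. MPPFL+ replicate 3 lay at least 1 unit above both other MPPFL+ arrays in 7 of the 15 measured late neutrophil granule genes and 2 of the 15 primary granule genes, Elane being 1 of that pair, but in 1.19% of all genes. It lay at least 1 unit below both in 4 of 38 stem cell genes and 4 of 17 antigen presentation genes, against 2.0% of all genes. Results that move with this array are therefore also given without it, and the rise of Elane was 10.31 without it.

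In GMP, 2302 genes (12.7% of those tested) rose and 3314 genes (18.2%) fell relative to MPPFL+, together 5616 genes (30.9%). The arrays of the populations did not overlap in 7536 genes (41.4%). Changes of at least 1 unit were found for 1262 of the higher and 2371 of the lower genes, and changes of at least 3 units for 212 and 494. The balance of higher and lower genes depends on how arrays are scaled. The median change of the 9097 genes that are not dim was -0.16 as deposited and 0.006 after quantile normalization, which gave 3025 higher and 2762 lower genes, or 52.3% higher against 41.0%. Of the genes called as deposited, 26 changed sign under that scaling, but no called gene among the 204 named by rule did so. GMP had the highest mean of the 8 populations in 1789 (77.7%) of the genes that rose, and the lowest in 1566 (47.3%) of those that fell.

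**Figure D1:**
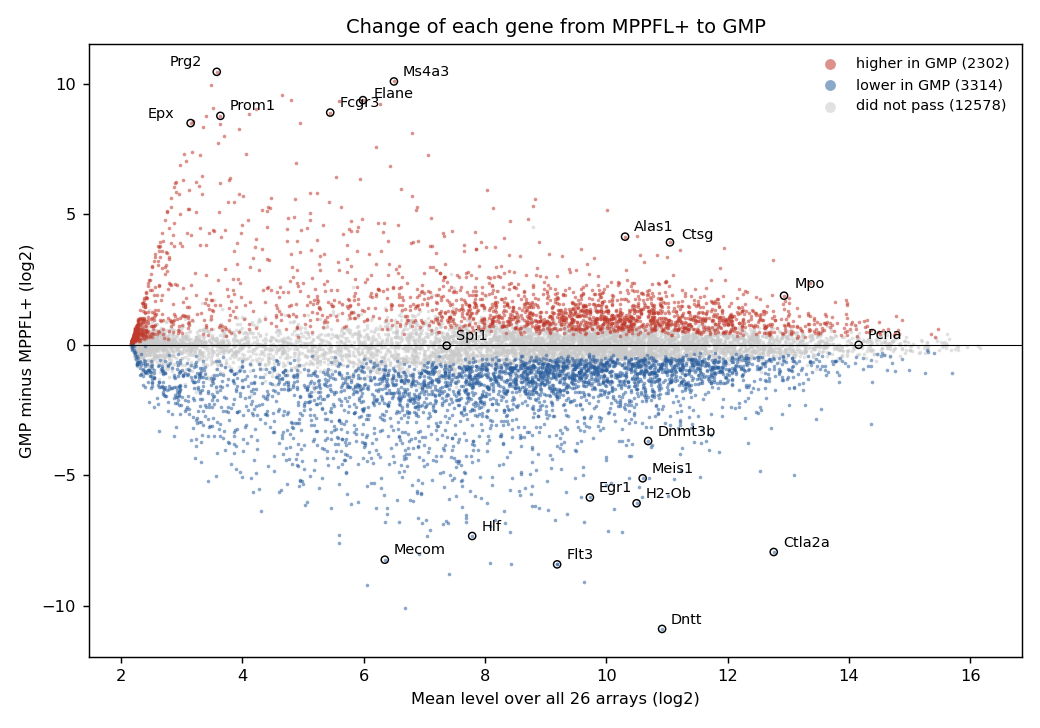
Each point is 1 of the 18194 genes, with its mean level over all 26 arrays (log2) on the x axis and GMP minus MPPFL+ (log2) on the y axis. Red points (2302) are higher and blue points (3314) lower in GMP at an adjusted p under 0.05, and grey points did not pass. Prg2 and Ms4a3 lie above 10 units and Dntt below -10, while Spi1 and Pcna lie near 0.

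Gene lists for cell types and processes were counted against these shares. Members higher in GMP made up most of the lists for granule proteins, eosinophil, basophil and mast cell genes, monocyte genes, and protein folding in the endoplasmic reticulum. Members lower in GMP made up most of the stem cell, early lymphoid and antigen presentation lists. The last had 9 of 17 members lower, or 6 with the spike-in block. These shares of list members describe the lists and were not tested as sets.

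**Figure D2:**
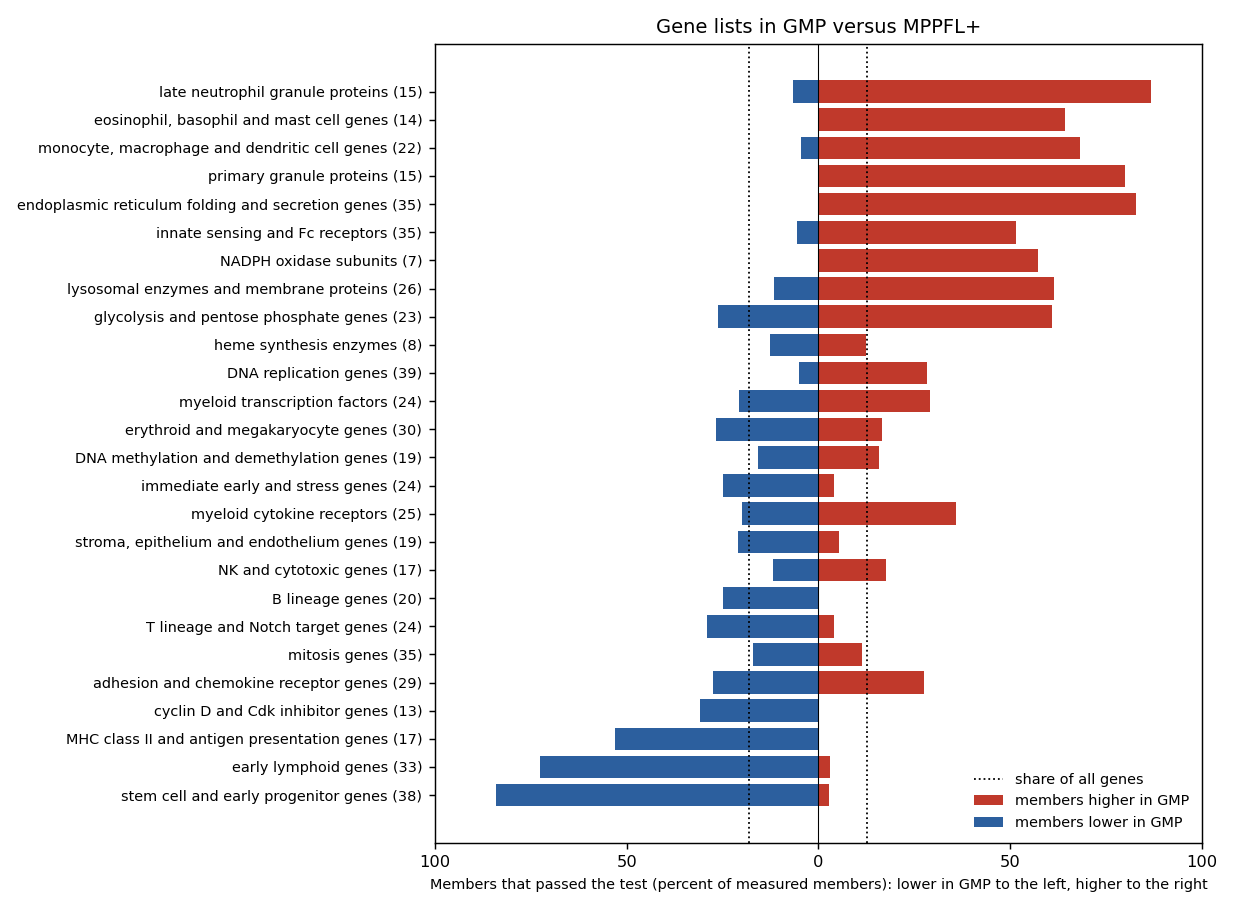
Bars give the percent of measured members of each list (number in brackets) that were higher in GMP (red, right) or lower in GMP (blue, left), and dotted lines mark the shares of all genes, 12.7% higher and 18.2% lower. Lists are ordered by median change, from 3.82 for late neutrophil granule proteins at the top to -2.77 for stem cell and early progenitor genes at the bottom.

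Genes listed with primary granule proteins rose together. Of 15 measured members, 12 were higher in GMP and 0 lower in limma's test (13 and 0 at an unadjusted p under 0.05), with a median change of 1.57. With the spike-in block 8 were higher, and with the 3′ to 5′ covariate 10. Without MPPFL+ replicate 3 the number higher was 11. The size of the members' changes differed widely. Mpo, the myeloperoxidase that makes hypochlorous acid, was at 16.12, 16.13 and 16.08 in GMP, against 14.06, 14.21 and 14.42 in MPPFL+. The groups did not overlap, yet the rise of 1.88 (SE 0.61, adjusted p = 0.0225) lost its call when the 3′ to 5′ difference was a covariate (1.23, adjusted p = 0.221). It also lost it without any 1 of 5 of the 6 arrays, all but MPPFL+ replicate 3, with adjusted p of 0.0511 to 0.0659. Those fits take the spread from all populations, and in the fit of the 6 arrays alone the rise of Mpo kept its call. Prtn3, the serine protease proteinase 3, was at 14.52, 14.61 and 14.49 in GMP, against 12.30, 12.60 and 12.94 in MPPFL+, a rise of 1.93 (SE 0.27, adjusted p = 1.05e-05). Ctsg, the granule protease cathepsin G, was at 15.68, 15.54 and 15.49 in GMP, against 11.36, 11.56 and 12.02 in MPPFL+, a rise of 3.92 (SE 0.32, adjusted p = 8.2e-09). The rises of the 4 granule enzymes thus ran from 1.88 for Mpo to 9.37 for Elane. Hp, the haemoglobin-binding haptoglobin, was counted in this list but is not one of these 4 enzymes. It was at 12.51, 12.56 and 12.47 in GMP, against 2.52, 2.52 and 3.74 in MPPFL+, a rise of 9.59 (SE 0.35). Ctsc, the dipeptidyl peptidase that activates the granule serine proteases, rose by 1.19 (SE 0.18), and Rab27a, a small GTPase of granule transport, by 1.46 (SE 0.19). Clec11a, a growth factor secreted by marrow cells, lay at 5.77, 6.11 and 5.70 in GMP, against 4.32, 4.11 and 4.46 in MPPFL+.

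The promoters of the 4 granule enzymes are shown because these genes rose together, though by unlike amounts. Each runs from 250 bases before to 50 bases after the gene's start, 5′ to 3′ on the gene's strand, from RefSeq on GRCm38.p6. They lie at chr10:79886062-79886361 (plus strand, Elane), chr11:87793534-87793833 (plus strand, Mpo), chr10:79879417-79879716 (plus strand, Prtn3) and chr14:56102525-56102824 (minus strand, Ctsg). Capitals mark matches, on either strand, to short motifs of factors known in myeloid cells, and the motifs do not overlap one another in these windows.
Elane: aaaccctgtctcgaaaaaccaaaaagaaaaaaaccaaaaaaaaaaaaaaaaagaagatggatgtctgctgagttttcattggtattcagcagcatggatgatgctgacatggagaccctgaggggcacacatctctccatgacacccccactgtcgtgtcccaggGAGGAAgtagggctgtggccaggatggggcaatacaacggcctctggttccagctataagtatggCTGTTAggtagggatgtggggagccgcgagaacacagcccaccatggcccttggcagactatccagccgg
Mpo: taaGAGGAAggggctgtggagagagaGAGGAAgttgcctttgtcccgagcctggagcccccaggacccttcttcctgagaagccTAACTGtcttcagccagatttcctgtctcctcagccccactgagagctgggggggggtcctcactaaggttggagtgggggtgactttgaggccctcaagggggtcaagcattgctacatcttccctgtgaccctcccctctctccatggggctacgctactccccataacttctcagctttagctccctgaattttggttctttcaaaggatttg
Prtn3: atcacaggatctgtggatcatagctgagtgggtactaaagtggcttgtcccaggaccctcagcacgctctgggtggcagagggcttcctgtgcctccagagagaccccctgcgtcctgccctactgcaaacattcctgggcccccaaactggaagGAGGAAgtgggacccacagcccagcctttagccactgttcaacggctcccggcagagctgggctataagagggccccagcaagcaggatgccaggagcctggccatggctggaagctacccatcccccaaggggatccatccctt
Ctsg: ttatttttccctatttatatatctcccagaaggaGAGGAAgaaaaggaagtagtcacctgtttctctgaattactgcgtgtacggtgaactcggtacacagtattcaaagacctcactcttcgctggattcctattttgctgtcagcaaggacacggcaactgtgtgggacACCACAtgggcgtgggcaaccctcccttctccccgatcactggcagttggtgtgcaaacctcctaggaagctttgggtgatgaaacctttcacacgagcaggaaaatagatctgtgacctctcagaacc
GAGGAA, the core that PU.1 binds, was found in all 4 windows, with 2 copies in Mpo. Of 32851 mouse promoters of this length, 28.3% hold it on either strand. TAACNG, a Myb motif in which N is any base, was found in Elane (as its reverse complement CTGTTA) and in Mpo (as TAACTG), against 23.3% of all promoters. TGTGGT, a Runx motif, was found in Ctsg (as ACCACA), against 16.8% of all promoters. TTNNGNAA, a C/EBP motif, was in none of the 4 windows and in 40.7% of all promoters. A match describes the letters in the window and is not evidence of binding, and the arrays hold no measurement at these positions.

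Genes of late neutrophil granules and cytosol, normally abundant in myelocytes and later cells, also rose, and here 1 MPPFL+ array set the size of many changes. Of 15 measured members, 13 were higher in GMP and 1 was lower (median 3.82), and without MPPFL+ replicate 3 the counts were again 13 and 1, with a median of 5.57. With the spike-in block they were 10 and 1. Chil3, a chitinase-like protein of neutrophils and macrophages, was at 11.42, 12.09 and 11.86 in GMP, against 2.17, 2.17 and 9.06 in MPPFL+. Lcn2, the iron-scavenging lipocalin 2, was at 9.73, 10.20 and 10.57 in GMP, against 2.17, 2.17 and 7.57 in MPPFL+. S100a8, a calcium-binding protein of the neutrophil cytosol, was at 13.12, 13.39 and 13.59 in GMP, against 5.84, 5.89 and 11.29 in MPPFL+. In each of these the GMP arrays were all higher, but MPPFL+ replicate 3 lay closer to them than to its own replicates. The rise of S100a8 was 5.69 (SE 1.01, adjusted p = 0.000168) with that array and 7.50 (adjusted p = 3.54e-08) without it. For Lcn2 the rise was 6.20 (SE 0.90, adjusted p = 1.91e-05) with it and 8.00 (adjusted p = 1.41e-11) without it, and for Chil3 it was 7.32 and 9.62. The rises of Ltf (lactoferrin), Ngp, S100a9 and Camp were 3.82, 5.17, 5.12 and 3.61 with it and 4.70, 7.05, 6.80 and 5.56 without it. Without MPPFL+ replicate 1 instead, those of Lcn2, Chil3, S100a8, Ngp and S100a9 were 5.30, 6.17, 4.78, 4.16 and 4.34, and without replicate 2 they were 5.30, 6.17, 4.80, 4.30 and 4.22. Camp, the antimicrobial cathelicidin, overlapped between the groups, at 7.41, 8.5 and 8.29 in GMP and 2.60, 2.41 and 8.37 in MPPFL+. In a fit of the 6 arrays alone, which takes the spread from these 2 populations, the count of members higher in GMP was 6, and Lcn2, Chil3, S100a8, S100a9 and Ngp did not pass (adjusted p from 0.0645 to 0.118). For Fcnb, Ltb4r1 and Padi4 that array lay among its replicates. Fcnb, the secreted pattern receptor ficolin B, was at 8.44, 8.37 and 8.34 in GMP and at the floor on all 3 MPPFL+ arrays, at least 74.1-fold higher in GMP. Ltb4r1, a leukotriene B4 receptor, was at 11.54, 11.80 and 11.35 in GMP, against 5.29, 6.08 and 5.38 in MPPFL+. The member that fell was Padi4, the enzyme that turns histone arginine into citrulline, at 5.15, 5.24 and 5.27 in GMP, against 9.53, 9.73 and 9.74 in MPPFL+ (adjusted p = 4.42e-10). The part of later neutrophil cells in the values of MPPFL+ replicate 3 was not tested.

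**Figure D3:**
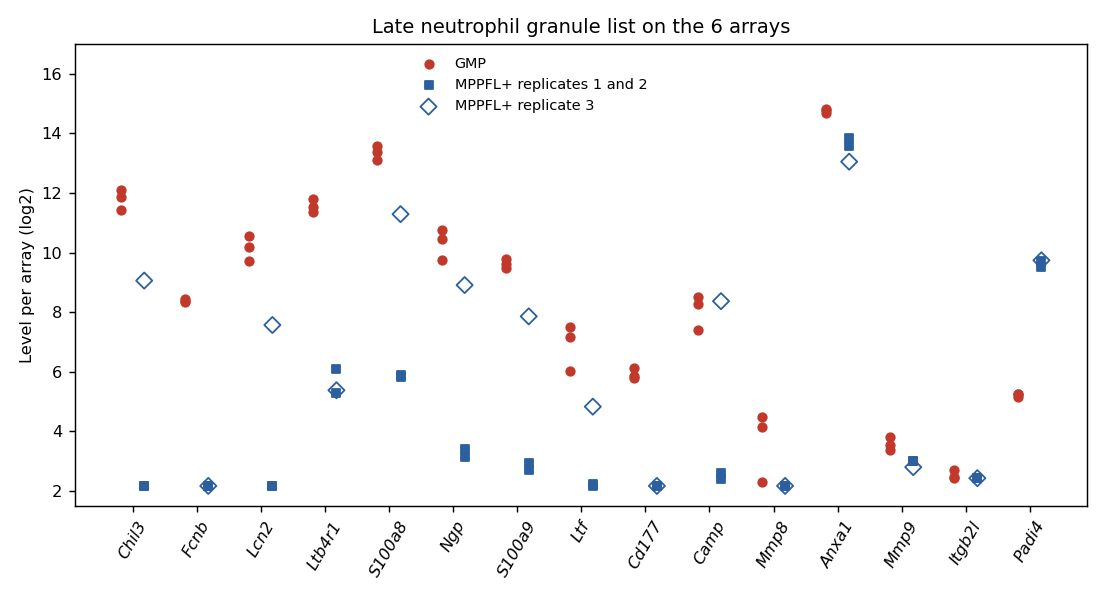
Level per array (log2) of the 15 measured late neutrophil granule genes, ordered by change, with GMP arrays as red circles and MPPFL+ arrays as blue squares (replicates 1 and 2) or an open diamond (replicate 3). For Chil3, Lcn2, S100a8, Ngp, S100a9, Ltf and Camp the diamond lies well above the squares, while for Fcnb, Cd177, Ltb4r1 and Padi4 it lies among them.

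Eosinophil, basophil and mast cell genes held Prg2, the largest rise among all genes that passed. Of 14 measured members, 9 were higher in GMP and 0 lower in limma's test (9 and 0 at an unadjusted p under 0.05), with a median of 3.67. With the spike-in block 8 were higher and 0 lower. Prg2, the major basic protein of eosinophil granules, was at 13.36, 12.87 and 13.20 in GMP, against 3.71, 2.17 and 2.17 in MPPFL+, a rise of 10.46 (SE 0.42, adjusted p = 2.99e-13). Epx, the eosinophil peroxidase, was at 11.38, 9.92 and 10.69 in GMP and at the floor on all MPPFL+ arrays, at least 360-fold higher in GMP (adjusted p = 3.58e-17). Prg3, a relative of Prg2, was at 7.92, 6.97 and 6.97 in GMP, again with all MPPFL+ arrays at the floor. GMP replicate 1 had the highest level of all 3 eosinophil genes. Hdc, the enzyme that makes histamine, was at 13.06, 13.14 and 12.97 in GMP, against 3.79, 3.79 and 3.91 in MPPFL+. Mcpt8, a protease of basophils, was at 10.87, 10.11 and 10.33 in GMP, against 5.82, 6.23 and 6.33 in MPPFL+. Cpa3, the mast cell carboxypeptidase, was at 10.57, 10.29 and 10.30 in GMP, against 5.72, 4.95 and 4.96 in MPPFL+. The steps at which these genes rose were not the same. Prg2, Epx and Prg3 averaged 2.91, 2.17 and 2.17 in CMP, whereas Cpa3 and Ms4a2, a chain of the IgE receptor, averaged 11.30 and 10.04 there, and GMP minus CMP was -0.91 for Cpa3, which did not pass (adjusted p = 0.174), and -1.13 for Ms4a2, which did (adjusted p = 0.0111).

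Monocyte, macrophage and dendritic cell genes rose in 15 of 22 measured members and fell in 1 (median 3.23), or in 13 and 0 with the spike-in block. F13a1, the coagulation factor XIII chain found in monocytes, was at 13.03, 13.23 and 12.90 in GMP, against 5.77, 5.34 and 3.71 in MPPFL+, a rise of 8.11 (SE 0.44, adjusted p = 2.13e-11) that was 7.50 without MPPFL+ replicate 3. Ly86, the partner protein of an endotoxin receptor homologue, was at 11.73, 11.82 and 11.63 in GMP, against 3.71, 4.57 and 5.09 in MPPFL+. Csf1r, the receptor for macrophage colony-stimulating factor, was at 13.30, 13.16 and 13.03 in GMP, against 9.67, 10.27 and 9.41 in MPPFL+, a rise of 3.38 (SE 0.41, adjusted p = 2.2e-06). None of these 3 genes overlapped between the populations. Ccr2, the chemokine receptor by which monocytes leave marrow, rose by 5.47 (SE 0.27), and Adgre1, a surface protein of mature macrophages, by 5.26 (SE 0.25). Klf4, a transcription factor of monocytes, was at 12.33, 12.13 and 12.29 in GMP, against 7.63, 6.17 and 5.14 in MPPFL+. Its change of 5.94 had a large error (SE 1.26, adjusted p = 0.00101), and was 6.60 without MPPFL+ replicate 1 and 5.35 without replicate 3. Mrc1, the macrophage mannose receptor, was the member that fell, by 1.69, and no member fell after quantile normalization or with the spike-in block. The same list set against CLP held 10 members higher and 5 lower in GMP, where 11.6% and 16.7% of all genes were higher and lower. Ly86 averaged 11.58 in CLP, and its difference of GMP from CLP, 0.14, did not pass (adjusted p = 1), and Irf8 was 1.37 units lower in GMP than in CLP (adjusted p = 0.00743).

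Receptors that sense microbes or bind antibodies rose in 18 of 35 measured members and fell in 2 (median 0.93), or in 13 and 1 with the spike-in block. Fcgr3, a low-affinity IgG receptor, was at 12.21, 12.35 and 12.13 in GMP, against 3.48, 3.01 and 3.51 in MPPFL+, a rise of 8.89 (SE 0.23, adjusted p = 1.81e-16). Trem3, an activating receptor of myeloid cells in the mouse, was at 12.41, 12.38 and 12.50 in GMP, against 2.90, 2.65 and 3.63 in MPPFL+. Cd14, the co-receptor for endotoxin, was at 7.33, 7.44 and 7.62 in GMP, against 2.18, 2.18 and 2.19 in MPPFL+, at least 39.0-fold higher in GMP. Every GMP array thus lay at least 5 units above every MPPFL+ array for these 3 genes, and Cd14 was near the floor in MPPFL+. Clec5a, a lectin that signals through an adaptor of myeloid cells, was at 9.60, 9.54 and 9.55 in GMP with MPPFL+ at the floor, at least 168-fold higher in GMP. Tlr1, which pairs with Tlr2 to sense bacterial lipopeptides, was at 8.30, 8.55 and 8.37 in GMP, against 2.18, 2.18 and 2.21 in MPPFL+. Itgam, which encodes CD11b of mature myeloid cells, stayed near the floor, at 3.13, 3.15 and 3.02 in GMP and 2.17 on all MPPFL+ arrays. Among the members that did not pass were Tlr2, Tlr4, Tlr9 and Myd88, and the 2 that fell were Tlr7 (by 3.79) and Cd33 (by 1.89).

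The NADPH oxidase, which makes superoxide in phagocytes, showed unequal change among its subunits. Of 7 measured subunits, 4 rose and 0 fell in limma's test (4 and 0 at an unadjusted p under 0.05). With the spike-in block 3 rose and 0 fell. Cybb, the catalytic subunit, was at 11.13, 11.46 and 11.30 in GMP, against 2.45, 2.20 and 2.69 in MPPFL+, at least 462-fold higher in GMP. Its membrane partner Cyba was at 13.06, 13.04 and 12.99 in GMP, against 10.84, 11.43 and 10.52 in MPPFL+. The cytosolic activator Ncf1 was at 13.37, 13.42 and 13.25 in GMP, against 10.97, 11.97 and 11.22 in MPPFL+. Cyba and Ncf1 were thus clearly measured in MPPFL+, and they rose by 2.10 (SE 0.26) and 1.96 (SE 0.37). The small GTPase Rac1 rose by 0.78, while Ncf4 and Rac2 did not pass.

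Genes for folding and export of proteins in the endoplasmic reticulum rose in 29 of 35 measured members, the highest count of rises of any list, and fell in 0 in limma's test (31 and 1 at an unadjusted p under 0.05). The median change was 1.23, and without MPPFL+ replicate 3 the counts were 30 and 1. With the spike-in block they were 22 and 0. Sdf2l1, a co-chaperone of the endoplasmic reticulum, was at 10.60, 10.72 and 10.67 in GMP, against 6.40, 7.07 and 7.16 in MPPFL+, a rise of 3.79 (SE 0.48, adjusted p = 3.81e-06). Ero1a, an oxidase that drives disulfide bond formation, was at 12.62, 12.66 and 12.48 in GMP, against 10.10, 9.92 and 9.81 in MPPFL+. Its relative Ero1b was at 12.30, 12.55 and 12.21 in GMP, against 10.16, 10.16 and 9.51 in MPPFL+. Both oxidases rose by more than the list's median, by 2.64 (SE 0.27) and 2.41 (SE 0.20). The disulfide isomerases Pdia3, Pdia4 and Pdia6 rose by 2.05 (SE 0.34), 2.50 (SE 0.37) and 2.47 (SE 0.28). Hspa5, the main chaperone of the compartment and a standard marker of its stress response, was well above the floor in both and changed by less, at 15.02, 15.01 and 14.95 in GMP, against 14.11, 14.38 and 14.39 in MPPFL+ (rise 0.70, SE 0.18). Translocon and signal sequence receptor subunits were among the others that rose, such as Ssr2 by 1.75 and Sec61a1 by 0.88. In CLP set against the same MPPFL+ arrays, 0 of the 35 members were higher and 1 lower (2 and 1 at an unadjusted p under 0.05), where 2.53% and 4.01% of all genes were higher and lower (6.54% together); those 6 arrays share a spike-in cluster, and the GMP arrays do not. The direct difference of GMP from CLP had 29 members higher and 1 lower, where 11.6% and 16.7% of all genes were higher and lower.

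Lysosomal genes rose in 16 of 26 measured members and fell in 3 (median 0.74), or in 13 and 3 without MPPFL+ replicate 3 and in 10 and 0 with the spike-in block. Ctsh, the aminopeptidase cathepsin H, was at 13.01, 13.18 and 12.76 in GMP, against 8.52, 8.63 and 7.29 in MPPFL+, a rise of 4.84 (SE 0.33, adjusted p = 7.27e-10). Ctsz, a carboxypeptidase, was at 14.38, 14.45 and 14.49 in GMP, against 11.65, 11.63 and 11.25 in MPPFL+. Hexa, a hexosaminidase that degrades gangliosides, rose by 2.01 (SE 0.15), and Lamp1, a membrane protein that marks lysosomes, by 1.85 (SE 0.11). The groups did not overlap for any of these. Ctsd, the aspartic protease of lysosomes, did not pass, at 11.87, 11.79 and 11.66 in GMP and 11.09, 11.46 and 10.88 in MPPFL+ (adjusted p = 0.0699). Lgmn, an endopeptidase that also processes antigens, fell by 2.41 (SE 0.64, adjusted p = 0.00602).

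Myeloid transcription factors did not move as a group. Of 24 measured members, 7 were higher in GMP and 5 lower, with a median of 0.16. Spi1 overlapped between the populations, at 9.17, 8.69 and 8.75 in GMP and 8.85, 9.17 and 8.69 in MPPFL+, a difference of -0.04 (SE 0.34, adjusted p = 1). Cebpa was at 9.07, 8.62 and 8.85 in GMP, against 6.23, 6.90 and 6.34 in MPPFL+, a rise of 2.36 (SE 0.30, adjusted p = 3.35e-06). Cebpd, a related factor, was at 10.87, 10.78 and 10.57 in GMP, against 7.11, 7.99 and 8.13 in MPPFL+. The best known pair of myeloid factors thus differed in these cells, with Cebpa higher in GMP and Spi1 without a detected change. Irf8 was at 13.45, 13.18 and 12.95 in GMP, against 10.62, 11.07 and 10.99 in MPPFL+, a rise of 2.30 (SE 0.37). Gfi1, a repressor needed for neutrophil formation, was at 12.41, 12.48 and 12.52 in GMP and 12.16, 12.01 and 11.45 in MPPFL+, and the difference did not pass (adjusted p = 0.126). Its level at CMP was lower than at either, as described below. Egr1, an early response factor, fell the most of this list, at 5.31, 5.43 and 4.36 in GMP, against 11.32, 10.22 and 11.11 in MPPFL+ (adjusted p = 3.68e-06). Its co-repressor Nab2 fell by 3.50 (SE 0.28) and Maf, a factor of macrophages, by 3.89 (SE 0.41).

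Myeloid cytokine receptors were likewise divided, with 9 of 25 measured members higher in GMP and 5 lower (median 0.03), or 7 and 6 without MPPFL+ replicate 3 and 5 and 3 with the spike-in block. Csf2ra, the specific chain of the granulocyte-macrophage colony-stimulating factor receptor, was at 10.35, 10.18 and 9.90 in GMP, against 8.16, 7.76 and 8.5 in MPPFL+ (adjusted p = 0.000233). Csf3r, the granulocyte colony-stimulating factor receptor, did not pass, at 10.76, 10.92 and 10.71 in GMP and 11.21, 11.06 and 11.44 in MPPFL+ (difference -0.44, SE 0.21, adjusted p = 0.126). The receptors for the 3 myeloid colony-stimulating factors thus differed, with Csf1r and Csf2ra higher in GMP and Csf3r without a detected change. Il1r1, the signalling receptor for interleukin 1, was at 4.82, 4.99 and 4.78 in GMP, against 10.69, 10.78 and 10.51 in MPPFL+, and fell by 5.79 (SE 0.35, adjusted p = 1.17e-10). Il18r1, the interleukin 18 receptor, was at 2.36, 2.17 and 2.17 in GMP, against 6.58, 6.29 and 7.11 in MPPFL+, at least 21.6-fold lower in GMP. Kit, the stem cell factor receptor, fell by 1.16.

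The 15 largest rises that fit the naming rule were led by Prg2 and by Ms4a3, a membrane protein of myeloid progenitors. Ms4a3 was at 14.16, 14.05 and 14.10 in GMP, against 3.56, 3.06 and 5.42 in MPPFL+, a rise of 10.09 that was 10.79 without MPPFL+ replicate 3. GMP was the highest of the 8 populations for all 15. Several have no place in the lists above. Sgms2, a sphingomyelin synthase, was at 12.02, 12.13 and 12.24 in GMP, against 2.17, 2.17 and 2.20 in MPPFL+, at least 989-fold higher in GMP. Gda, the guanine deaminase, was at 12.80, 12.93 and 12.82 in GMP, against 2.92, 3.57 and 4.02 in MPPFL+. Dmkn, a secreted protein best known from skin, was at 11.08, 11.33 and 11.26 in GMP with MPPFL+ at the floor, at least 531-fold higher in GMP. These enzymes and secreted proteins are not usual markers of granulocytes. Igsf6, an immunoglobulin-like membrane protein, was at least 519-fold higher in GMP, Mgam, an intestinal maltase-glucoamylase also found in granulocytes, at least 431-fold, and Far2, a reductase that makes fatty alcohols, at least 380-fold. In all, 22 genes were at the floor on every MPPFL+ array and at or above the median gene level of 5.31 on every GMP array, while 8 genes showed the reverse.

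**Figure D4:**
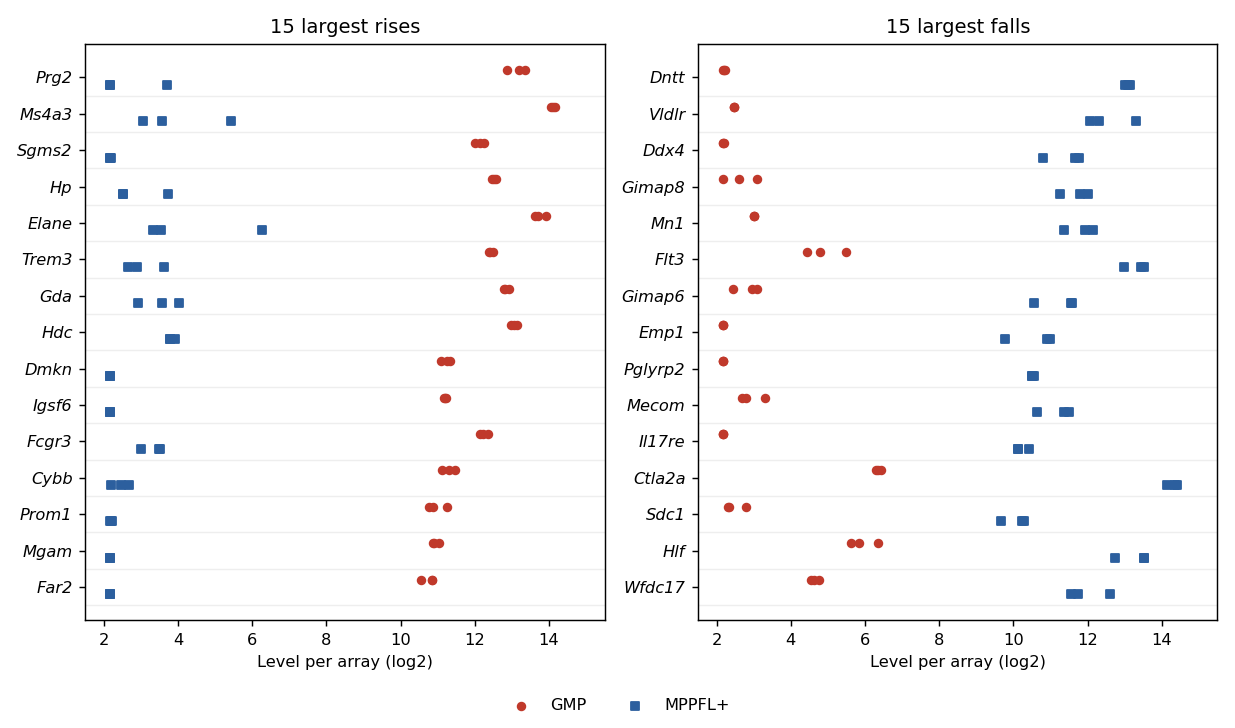
Level per array (log2) of the 15 genes with the largest rise (left) and the 15 with the largest fall (right) by the naming rule, with GMP arrays as red circles above MPPFL+ arrays as blue squares. In no gene do the groups overlap, as the naming rule requires, and the widest spread among rises is that of Elane and Ms4a3 in MPPFL+.

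Stem cell and early progenitor genes fell in most members. Of 38 measured members, 32 were lower in GMP and 1 was higher (median -2.77), with the same counts without MPPFL+ replicate 3. With the spike-in block the counts were 25 and 1. The number lower was 30 with the 3′ to 5′ covariate and also after quantile normalization. Mecom, a transcription factor needed by stem cells, was at 3.29, 2.80 and 2.68 in GMP, against 11.51, 11.35 and 10.63 in MPPFL+, and fell by 8.24 (SE 0.26, adjusted p = 5.43e-15). Hlf, a stem cell transcription factor, was at 5.83, 6.35 and 5.63 in GMP, against 13.53, 13.53 and 12.73 in MPPFL+. Meis1, a partner of Hox proteins, kept a middling level, at 8.94, 8.36 and 8.96 in GMP, against 14.10, 13.81 and 13.71 in MPPFL+, and fell by 5.12 (SE 0.31). All 3 factors were separated from MPPFL+ by over 4 units on every array. Mycn, a Myc family factor of early progenitors, was at 3.78, 3.78 and 3.51 in GMP, against 11.19, 11.24 and 10.01 in MPPFL+. Procr, a stem cell marker that binds protein C, was at 4.09, 4.09 and 4.42 in GMP, against 11.33, 11.35 and 10.37 in MPPFL+. Angpt1, a ligand of the receptor Tek, fell by 5.14 (SE 0.18), and Esam, an adhesion protein of stem cells, was at least 23.9-fold lower in GMP. The falls of Kit and Cd34, whose proteins GMP are usually sorted by, were small at 1.16 and 1.09. Hoxa10 and Hoxa9, homeobox factors of early progenitors, fell by 4.35 and 3.18. The single member that rose was Prom1, which encodes the surface protein CD133, at 10.87, 10.77 and 11.26 in GMP, against 2.17, 2.19 and 2.23 in MPPFL+, at least 436-fold higher in GMP (adjusted p = 2.28e-12).

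Among the largest falls outside that list were genes with little link to blood in their names. Vldlr, a lipoprotein receptor, was at 2.48 on all 3 GMP arrays, against 12.07, 12.30 and 13.31 in MPPFL+, at least 1080-fold lower in GMP. Ddx4, an RNA helicase known from germ cells, was at 2.17, 2.17 and 2.19 in GMP, against 11.65, 11.77 and 10.79 in MPPFL+, at least 599-fold lower in GMP. Pglyrp2, an amidase that cleaves bacterial peptidoglycan, was at the floor in GMP, against 10.49, 10.51 and 10.56 in MPPFL+. These genes were at or near the floor in GMP, so that the true falls could be larger. Ctla2a, a cysteine protease inhibitor, kept a level above the gene median, at 6.30, 6.43 and 6.36 in GMP, against 14.41, 14.36 and 14.14 in MPPFL+ (fall 7.94, SE 0.20). GMP was the lowest of the 8 populations for 9 of the 15 genes with the largest fall, and MPPFL+ the highest for 6.

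Early lymphoid genes fell in 24 of 33 measured members and rose in 1 (median -2.05), or in 22 and 1 without MPPFL+ replicate 3. With the spike-in block 18 fell and 1 rose. Dntt, the terminal transferase that adds bases at antigen receptor joints, showed the largest fall among all genes that passed, at 2.22, 2.17 and 2.19 in GMP, against 13.02, 13.15 and 13.08 in MPPFL+, at least 1900-fold lower in GMP (adjusted p = 1.01e-17). Ltb, the membrane chain of lymphotoxin, was at 2.70, 2.53 and 2.52 in GMP, against 9.44, 9.65 and 8.63 in MPPFL+. Ccr9, a chemokine receptor of cells that settle the thymus, was at 2.33, 2.59 and 2.33 in GMP, against 8.49, 9.57 and 8.69 in MPPFL+. Each of these lymphoid genes was near the floor in GMP and well expressed on all 3 MPPFL+ arrays. Sox4 and Tcf4, factors that early lymphoid cells use, fell but stayed well above the floor, Sox4 at 11.39, 11.41 and 11.78 in GMP, against 14.35, 14.45 and 14.28 in MPPFL+. Il7r, the interleukin 7 receptor, had its call from 1 array, at 2.83, 2.77 and 2.56 in GMP, against 3.35, 3.52 and 7.55 in MPPFL+. Its fall of 2.09 (adjusted p = 0.0311) became -0.72 (adjusted p = 0.183) without MPPFL+ replicate 3, and it also failed without any 1 GMP array (adjusted p of 0.0595 to 0.0805). Set against the same MPPFL+ arrays, CLP had 14 of these 33 genes higher and 1 lower, where 2.53% and 4.01% of all genes were higher and lower. The direct difference of GMP from CLP had 28 lower and 0 higher in limma's test (29 and 0 at an unadjusted p under 0.05), with a median of -3.09. In that difference 16.7% of all genes were lower and 11.6% higher.

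Genes of antigen presentation by MHC class II fell in 9 of 17 measured members and rose in 0 in limma's test (10 and 0 at an unadjusted p under 0.05), with a median of -0.74. With the spike-in block 6 fell and 0 rose. H2-Ob, the beta chain of the inhibitor of peptide loading, was at 6.10, 6.92 and 6.51 in GMP, against 12.79, 12.66 and 12.31 in MPPFL+, and fell by 6.08 (SE 0.26, adjusted p = 8.89e-13). H2-Aa, an alpha chain of the presenting molecule, was at 7.53, 5.81 and 6.44 in GMP, against 12.04, 11.75 and 10.60 in MPPFL+. Cd74, the invariant chain that guides class II molecules, was at 4.63, 4.77 and 5.26 in GMP, against 9.52, 9.39 and 9.15 in MPPFL+. H2-Aa, Cd74 and the beta chain H2-Eb1 thus fell by over 4 units (H2-Eb1 by 4.74), while H2-Ab1, the beta chain that pairs with H2-Aa, fell by 2.37 (adjusted p = 0.000856). MPPFL+ replicate 3 had the lowest level of its group for all 5 genes, and the count of members that fell was also 9 without it. The class I heavy chains H2-D1 and H2-K1 and their light chain B2m did not pass, while the peptide transporter Tap1 fell by 0.74. Ciita, the class II master regulator, did not pass.

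Erythroid and megakaryocyte genes had net counts near the shares of all genes, which were 12.7% higher and 18.2% lower in GMP. Of 30 measured members, 5 were higher and 8 lower (median 0.15), or 2 and 5 with the spike-in block. The median takes the other sign, -0.58, when dim genes are left out. Gata1, the master factor of red cells and megakaryocytes, was at 6.0, 5.76 and 5.94 in GMP, against 4.10, 3.72 and 4.39 in MPPFL+, a rise of 1.82 (SE 0.40, adjusted p = 0.00127). Its cofactor Zfpm1 moved the other way, at 3.97 on all GMP arrays, against 9.32, 9.53 and 9.33 in MPPFL+. Gfi1b, a repressor of the same lineages, was at 3.81, 4.40 and 4.0 in GMP, against 7.62, 7.81 and 7.36 in MPPFL+. So the members of this regulatory set did not share a direction. Itgb3, the beta chain of the platelet fibrinogen receptor, was at 8.59, 7.66 and 8.65 in GMP, against 3.55, 4.66 and 2.66 in MPPFL+, and rose by 4.68 (SE 0.41). Car2, a carbonic anhydrase of red cells and early progenitors, fell by 5.79 (SE 0.31). Klf1, a defining red cell factor, was near the floor in both, at 2.27 on all GMP arrays and 2.27, 2.27 and 3.24 in MPPFL+. Of 8 measured heme synthesis enzymes, 1 rose and 1 fell (1 and 0 with the spike-in block), also near the shares of all genes. Alas1, the first enzyme of the pathway outside red cells, was at 14.01, 14.15 and 13.85 in GMP, against 9.69, 9.94 and 9.95 in MPPFL+, a rise of 4.14 (SE 0.31, adjusted p = 3.61e-09). The next enzyme, Alad, was at 10.71, 10.52 and 10.51 in GMP, against 12.55, 11.53 and 12.21 in MPPFL+ (fall 1.52, SE 0.34). Fech, which inserts the iron at the last step, did not pass (adjusted p = 0.419).

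Cell cycle genes were counted against the shares of all genes, 12.7% higher and 18.2% lower in GMP. Of 39 measured DNA replication genes, 11 were higher in GMP and 2 lower (median 0.17, or 0.33 without MPPFL+ replicate 3), with 4 and 1 under the spike-in block and 8 and 5 with the 3′ to 5′ covariate. Of 35 mitosis genes, 4 were higher and 6 lower (median -0.01), with 3 and 3 without MPPFL+ replicate 3 and 2 and 1 under the spike-in block. Mcm2, a subunit of the replicative helicase, overlapped, at 12.22, 12.22 and 12.33 in GMP and 12.22, 12.31 and 12.54 in MPPFL+. Pcna, the sliding clamp, overlapped too, at 14.14, 14.03 and 14.10 in GMP and 14.12, 14.22 and 13.94 in MPPFL+. Cdk1, the mitotic kinase, was at 12.24, 12.19 and 12.07 in GMP and 12.11, 11.80 and 12.18 in MPPFL+. These 3 genes thus overlapped between the populations, while other members of both lists passed in either direction. Rrm2, the regulated subunit of ribonucleotide reductase, was at 14.10, 14.04 and 14.17 in GMP, against 12.95, 12.46 and 12.42 in MPPFL+, and rose by 1.49 (SE 0.18, adjusted p = 1.78e-06). Ccne1, a cyclin of the entry into DNA synthesis, rose by 1.96 (SE 0.30), and Plk1, a mitotic kinase, by 2.22 (SE 0.35). Kif23, a motor of cell division, fell by 2.06 (SE 0.23) and Ccnb2, a mitotic cyclin, by 1.10 (SE 0.26). Of 13 cyclin D and Cdk inhibitor genes, 4 fell and 0 rose in limma's test (5 and 0 at an unadjusted p under 0.05), and 2 fell under the spike-in block. Cdk4, the kinase that D cyclins activate, was at 12.98, 12.84 and 12.84 in GMP, against 13.75, 13.62 and 13.94 in MPPFL+ (fall 0.88, SE 0.15), and Ccnd2 fell by 1.23 (SE 0.24). Cdkn1c, an inhibitor linked to stem cell quiescence, was at 2.17, 2.32 and 2.32 in GMP, against 6.88, 5.87 and 3.75 in MPPFL+, at least 9.36-fold lower in GMP, and did not pass in the fit of the 6 arrays alone (adjusted p = 0.0606). Its change of -3.23 was -4.10 without MPPFL+ replicate 3 and -2.54 without replicate 1.

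Genes of glycolysis and the pentose phosphate pathway rose in 14 of 23 measured members and fell in 6 (median 0.59), or in 12 and 5 without MPPFL+ replicate 3 and in 9 and 2 with the spike-in block. Hk3, a hexokinase of blood cells, was at 13.20, 13.07 and 13.02 in GMP, against 10.37, 10.54 and 10.70 in MPPFL+, and rose by 2.56 (SE 0.30). Pgam1, the phosphoglycerate mutase, was at 14.50, 14.70 and 14.62 in GMP, against 12.59, 12.68 and 12.87 in MPPFL+. Aldoc, an aldolase isoform, was at 3.46, 4.39 and 3.44 in GMP, against 7.74, 8.63 and 6.97 in MPPFL+, and fell by 4.02 (SE 0.50), while its isoform Aldoa rose by 1.30 (adjusted p = 0.000264). Slc2a3, a glucose transporter, was at 9.07, 8.93 and 8.98 in GMP, against 11.68, 11.78 and 11.32 in MPPFL+. Hk3, Pgam1, Aldoc and Slc2a3 did not overlap between the groups, as was so for 41.4% of all genes. Members of the list thus passed in both directions, where 12.7% of all genes rose and 18.2% fell.

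Of 19 measured genes of DNA methylation and demethylation, 3 rose and 3 fell (shares near those of all genes), or 1 and 2 with the spike-in block. Dnmt1, which copies methylation after replication, did not pass and averaged 13.10 ± 0.16 in GMP and 13.43 ± 0.03 in MPPFL+ (SD, n = 3 each; limma difference -0.33, SE 0.28, adjusted p = 0.487). Dnmt3b, a methyltransferase that sets new marks, was at 8.01, 7.75 and 7.98 in GMP, against 10.90, 11.70 and 12.21 in MPPFL+, and fell by 3.69 (SE 0.33, adjusted p = 3.89e-08). A second probe set of Dnmt3b also fell, by 1.62 (SE 0.20). Both probe sets of Dnmt3b thus fell, while the maintenance enzyme did not pass. For Dnmt3a, the other such methyltransferase, the probe set with the highest mean was at 8.20, 7.77 and 8.19 in GMP, against 10.41, 10.52 and 10.16 in MPPFL+ (fall 2.31, SE 0.28). Its 4 other probe sets went the other way, of which those that rose did so by 2.30 and 0.58, so no direction is given for the gene. Uhrf1, which brings Dnmt1 to new DNA, did not pass (0.30, adjusted p = 0.636), though a second probe set rose by 2.45. Tet1, which oxidizes methylated bases, fell by 1.43 (adjusted p = 0.039), but lost its call without any 1 of the 6 arrays (adjusted p of 0.0522 to 0.123). Its relative Tet2 did not pass, at 9.12, 9.28 and 9.35 in GMP and 9.01, 8.47 and 9.18 in MPPFL+. Gadd45a, a stress protein linked to demethylation and repair, rose by 2.20 (SE 0.38).

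Adhesion and chemokine receptor genes were split, with 8 of 29 measured members higher and 8 lower, or 5 and 3 with the spike-in block. Of all genes, 12.7% were higher and 18.2% lower in GMP. Ccr1, a receptor of inflammatory chemokines on myeloid cells, was at 5.48, 5.83 and 5.45 in GMP, against 2.17, 2.24 and 2.24 in MPPFL+, at least 10.3-fold higher in GMP. Cx3cr1, the fractalkine receptor of monocytes, was at 8.55, 7.99 and 7.36 in GMP, against 5.20, 4.51 and 4.94 in MPPFL+. Vcam1, the ligand of an integrin of blood cells, was at 11.34, 11.70 and 11.60 in GMP, against 8.85, 7.60 and 8.70 in MPPFL+, and rose by 3.17 (SE 0.90, adjusted p = 0.0102). Cxcr4, which holds cells in marrow, overlapped, at 11.91, 11.70 and 11.75 in GMP and 11.09, 13.49 and 12.61 in MPPFL+. Receptors of inflammatory cells were thus among the 8 members that rose. Ccr9 (change -6.5) and Esam (change -4.58) were among the 8 that fell, and the marrow retention receptor did not pass. Of 24 immediate early and stress genes, 6 fell and 1 rose, or 3 and 0 with the spike-in block. Fos, the early response factor, was well above the floor in both, at 14.74, 14.74 and 14.58 in GMP and 14.87, 14.18 and 13.80 in MPPFL+, while Junb, a partner of Fos, was at 4.35, 4.38 and 3.56 in GMP, against 8.44, 7.72 and 6.73 in MPPFL+ (adjusted p = 0.00697). Fos and Junb thus differed in that Fos overlapped between the populations and Junb did not.

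Markers of other cell types were counted to see what else the sorted populations may hold. Of all genes, 12.7% were higher and 18.2% lower in GMP, and counts near these shares are not read as results about a cell type. Of 20 B lineage genes, 12 were near the floor in both populations, and 5 fell and 0 rose in limma's test (5 and 0 at an unadjusted p under 0.05). The defining B cell genes Cd79a and Pax5 were at or near the floor on all 6 arrays. Of 24 T lineage and Notch target genes, 14 were near the floor in both, 7 fell and 1 rose. Among them Tox, a factor of T cell development, was at the floor in GMP, against 8.08, 8.45 and 7.88 in MPPFL+, and Gata3, a master factor of T cells, was at 2.55, 2.17 and 2.86 in GMP, against 6.51, 5.97 and 5.16 in MPPFL+. The T lineage gene that rose was Cd28, a co-stimulatory receptor, by 2.04 (adjusted p = 0.0136), or by 1.88 (adjusted p = 0.0502) without MPPFL+ replicate 3. Of the B lineage genes that fell, Cd72, a B cell surface lectin, fell the most, by 4.11, and stayed above the floor in GMP at 6.35, 5.89 and 5.70. Of 17 NK and cytotoxic genes, 3 rose and 2 fell, with 10 near the floor in both and the NK receptor gene Ncr1 at the floor on all 6 arrays. Klrd1, another NK receptor gene of that list, fell, at 3.40, 3.41 and 3.40 in GMP, against 5.73, 7.38 and 5.35 in MPPFL+. Zbtb16, a factor of innate lymphocytes that myeloid progenitors also express, was the largest rise of that list, at 7.0, 6.90 and 7.60 in GMP, against 2.48, 2.17 and 3.67 in MPPFL+. Of 19 stroma, epithelium and endothelium genes, 11 were near the floor in both, 1 rose and 4 fell. The defining genes Col1a1 and Cdh5 were at the floor on all 6 arrays. Pdgfrb, a growth factor receptor best known from mesenchyme, fell the most, at 7.70, 6.72 and 6.87 in GMP, against 11.95, 12.18 and 12.32 in MPPFL+. Emcn and Krt18 fell by 3.77 and 2.34, and Cdh1 rose by 2.21. The Epcam probe set used fell by 0.98, while another probe set of that gene rose.

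The path from MPPFL+ through CMP to GMP was read from the same fit, in which CMP and GMP are both set against the same MPPFL+ arrays. Flt3 averaged 13.31 in MPPFL+, 10.76 in CMP and 4.90 in GMP, and Elane averaged 4.38, 10.58 and 13.75. The CMP mean lay between the others, or equal to one of them, in 1651 (71.7%) of the genes that rose and in 2408 (72.7%) of those that fell. The median share of the change that was present at CMP was 22.1% for genes that rose and 71.2% for genes that fell. These shares depend on scaling, and after quantile normalization they were 44.8% and 56.3%. Single genes showed distinct paths. Prg2 averaged 2.68 in MPPFL+, 2.91 in CMP and 13.14 in GMP, so nearly all of its rise lay in the second step. Csf1r averaged 9.78, 12.87 and 13.16, with no detected difference between CMP and GMP (adjusted p = 0.781). Mycn averaged 10.81, 9.95 and 3.69, a late fall, while Ddx4 averaged 11.40, 3.17 and 2.18, an early one. Some genes hid large opposite steps behind a small net change. Gata1 averaged 4.07, 10.98 and 5.90, and Klf1 averaged 2.59, 9.11 and 2.27. In CMP against MPPFL+, 23 of the 30 erythroid and megakaryocyte genes were higher and 1 lower, where 5.39% and 18.7% of all genes were higher and lower. In GMP against CMP, 21 were lower and 0 higher in limma's test (24 lower and 1 higher at an unadjusted p under 0.05), where 7.63% and 13.8% of all genes were lower and higher. Gfi1 took the opposite course, with 11.87 in MPPFL+, 9.65 in CMP and 12.47 in GMP, and both of its steps passed (CMP against MPPFL+ -2.23, adjusted p = 8.15e-06; GMP against CMP 2.82, adjusted p = 3.69e-07). Csf3r dipped in the same way, at 11.24, 9.58 and 10.80. Vcam1 averaged 8.38, 5.33 and 11.55.

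**Figure D5:**
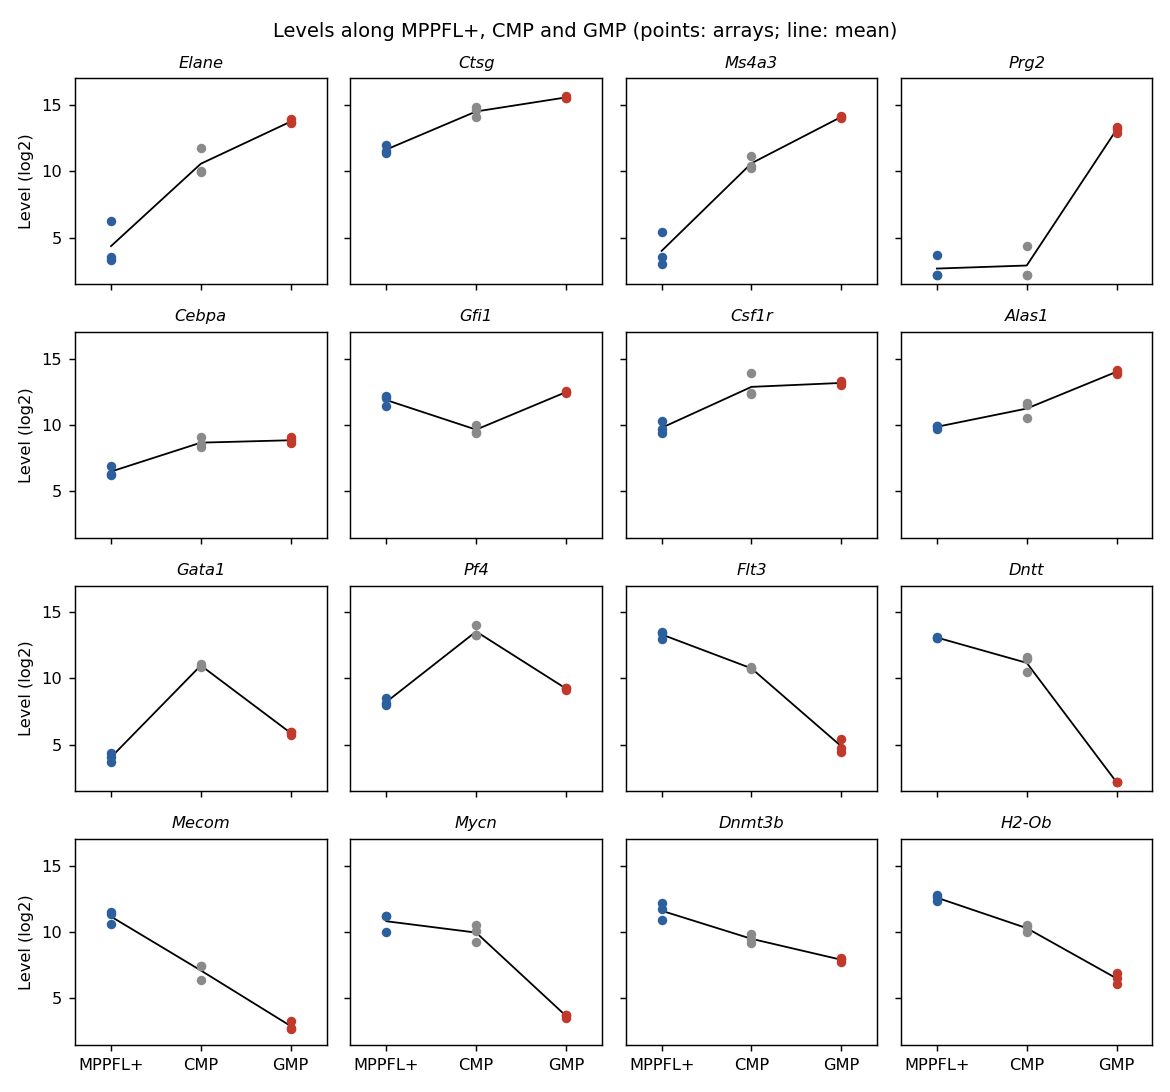
Levels (log2) of 16 genes on the arrays of MPPFL+, CMP and GMP, in the order of the path, with 1 point per array and a line through the means. Granule genes such as Elane climb at each step, Prg2 climbs only after CMP, Gata1 and Pf4 peak at CMP, Gfi1 dips there, and Flt3, Dntt, Mecom, Mycn, Dnmt3b and H2-Ob decline towards GMP.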

How the data were processed

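Expression was measured on 26 Affymetrix arrays of 8 sorted populations, 3 of them GMP and 3 MPPFL+. The values are log2 signals per probe set as deposited by the authors, read as log2 from their range, and their background correction, summary method and scaling are not given in the sources used here. Of 45101 probe sets, 34958 had 1 gene symbol, 932 several and 9211 none. Where several probe sets measured 1 of the 18194 genes, the one of highest mean level was kept. Other probe sets of a gene did not always pass with it. For Kif23, Cdk4, Mycn, Csf2ra, Il1r1 and Aldoc, among others, no other probe set passed. Of 1847 genes with at least 2 probe sets passing, 236 had probe sets passing in opposite directions. limma 3.58.1 in R 4.3.3 was fitted to all 26 arrays with no term but population, leaving 18 residual degrees of freedom, with Benjamini-Hochberg adjustment over all genes and a threshold of 0.05. Genes constant at the floor in most populations have very small standard errors in this fit. The number of arrays limits the precision. The fit was tested on simulated data. Quantile normalization, other probe set rules, other sets of arrays, blocks and covariates were tried.

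Named genes are the 15 largest rises and 15 largest falls among genes that passed, did not overlap between the groups and had a higher group at or above the median gene level, without unnamed genes; from each of 26 lists the anchor genes and up to 6 further members with the largest change that passed; and Elane and Flt3. Other list members in the text were chosen after their values were seen. Members and lists were chosen with earlier results of these data known. A bound written as at least so many fold uses the floor or the measured mean of the low group, whichever is higher. Replicate numbers did not pair the arrays: deviations of same-numbered arrays correlated at -0.039, -0.041 and 0.016.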

Additional observations from a re-analysis of the deposited data

How the results depend on the processing

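The count of 5616 genes that passed was 2642 (985 higher and 1657 lower in GMP) with the spike-in clusters as a random block, 9266 (4309 higher) when every probe set was tested, and 3633 (1262 higher) when a change of at least 1 was also required. Without any 1 array it ranged from 5015 to 5260, with 2002 to 2268 higher and 2861 to 3198 lower. With the replicate number as a block it was 5247, against 4784 for GMP from CLP and 3459 for GMP from CMP. Whether replicate numbers pair the arrays is not known. Quantile normalization turned the split to 52.3% higher for GMP against MPPFL+, to 50.1% against 40.9% as deposited for GMP from CLP, and to 53.3% against 64.3% for GMP from CMP. The median of the erythroid and megakaryocyte list became -0.58 without dim genes. The mean of probe sets gave 0.12 for Epcam and 0.28 for Dnmt3a, against -0.98 and -2.31 for the probe set used, because other probe sets of both run the opposite way (up to 1.23 for Epcam and 2.30 for Dnmt3a). Of the 204 named genes, 35 lost their call with the spike-in block, 11 in the fit of the 6 arrays, 10 with the 3′ to 5′ covariate, 5 after quantile normalization and 6 to 8 without any 1 array. Values at the floor limit what can be said of low genes.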

Other observations

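Some gene families outside the lists were counted after their values had been seen, so their counts describe these arrays and were not tested as sets. Of all genes, 12.7% rose and 18.2% fell. Of 8 measured Gimap genes, GTPases of lymphocyte survival, 7 fell in GMP, with a median of -4.67. Gimap8 was at 3.08, 2.17 and 2.59 in GMP, against 12.01, 11.80 and 11.26 in MPPFL+, and Gimap6 was at 2.95, 2.45 and 3.09 in GMP, against 11.57, 11.54 and 10.55 in MPPFL+. Gimap8 and Gimap6 were thus near the floor in GMP and well above the median gene in MPPFL+.

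Other families held members that moved both ways or did not pass. Of 10 Oas genes, which sense double-stranded RNA, 6 fell, with Oasl2 at 5.37, 5.50 and 5.37 in GMP, against 10.49, 10.46 and 10.17 in MPPFL+. Of 6 Gbp genes, which encode guanylate-binding proteins, 4 fell and 1 rose. The one that rose was Gbp3, at 11.78, 12.09 and 12.00 in GMP, against 10.36, 9.98 and 10.28 in MPPFL+. Of 8 Irf genes, 5 fell and Irf8 was the one that rose. Irf7, a factor of the interferon response, was at 4.84, 5.17 and 4.16 in GMP, against 7.16, 7.06 and 6.37 in MPPFL+. Of 11 Parp genes, 8 fell and 1 rose.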
